A study of Mus musculus with 2 samples.

Results

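The genes described here encode cytoplasmic dynein, its cofactor dynactin, the cargo adaptors of the BICD and Hook families, the Rab6 GTPases and the dynein regulators LIS1, Nde1 and Ndel1. They were taken by symbol from the 33696 genes of 2 single-cell RNA matrices: every Dync, Dynl, Dctn, Bicd, Hook and Rab6 gene, plus Ndel1, Nde1 and Pafah1b1, without Dctn pseudogenes. This gave 42 genes. By role they were 5 dynein-1 core subunits, 15 light chains, 6 dynactin subunits, 3 genes of LIS1 and its partners, 7 BICD and Hook adaptors, 2 Rab6 genes and 4 dynein-2 core subunits.

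Cytoplasmic dynein-1 is a motor complex that carries cargo along microtubules towards their minus ends. Its heavy chain binds the track, and intermediate, light intermediate and light chains hold cargo and cofactors. Dynactin and a coiled-coil adaptor such as BICD2 turn the motor into a processive machine, and GTP-bound Rab6 recruits BICD2 to Golgi-derived vesicles. LIS1, with Nde1 or Ndel1, assists assembly of the active complex. In leukocytes dynein is known for positioning the centrosome and the Golgi, for organelle traffic at the immune synapse and for spindle assembly in dividing cells. Dynein-2 serves transport inside cilia, which mature blood cells lack.

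Both groups were mice with floxed Bicd2 alleles. The group called WT had no Cre, and the group called KO carried Cre under the albumin promoter, which is active in hepatocytes, so immune cells of both groups were not the target of the deletion. All mice received S-100, a soluble liver protein extract in complete Freund's adjuvant, at 2.5 mg a week into the peritoneum for 3 weeks, as a model of autoimmune hepatitis. The series text describes immune cells of the liver, enriched on a density gradient and sorted alive, and cells were pooled. The sample labels instead name immune cells of the peritoneum and a treatment tag HFD. The text does not settle this conflict. Ages, strain and the number of mice pooled were not given in the sources used here.

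Each group was 1 library, so no test across samples exists and no difference below has a replicate check. Levels are UMIs (unique molecules) of a gene summed over all cells of a class, divided by all UMIs of that class and multiplied by 1000000 (CPM). Intervals are 95% counting intervals, exact Poisson for levels and exact conditional binomial for ratios of levels, and cover counting error only. A gene was counted in a class where both libraries together held at least 50 of its UMIs. "Lower" or "higher in KO" as a call means a difference of at least 1.5-fold in CPM plus 1, and log2 ratios are KO over WT on that scale. Because UMIs were summed over a class, fewer cells that express a gene and less RNA per cell were not told apart.

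After filtering, the WT library kept 17410 cells and 66375920 UMIs (median 2775 a cell) and the KO library 15457 cells and 41671881 UMIs (median 2009), and 70 kept barcodes occurred in both libraries. Clusters were built without the 42 genes and named from markers. The 8 classes with at least 100 cells in each library were T-like (5716 WT and 5207 KO cells), NK-ILC1-like (1668 and 1333), B-like (702 and 1819), monocyte-macrophage-like (1765 and 1820), dendritic or DC-like (593 and 540), plasmacytoid dendritic or pDC-like (276 and 335), neutrophil-like (4346 and 1507) and erythroid-like (1507 and 1015). Progenitor-like cells numbered 517 in WT and 50 in KO. Haemoglobin took 11.1% of UMIs in WT and 22.9% in KO, and within B-like cells 4.75% and 22.4%. UMIs of the 12 neutrophil markers in T-like cells went the other way, at 3732 CPM in WT and 561 CPM in KO. Each of the 5 Kupffer cell genes listed had fewer UMIs in KO (Clec4f 237 and 32). The 6 peritoneal macrophage genes were mixed in CPM: Gata6 (4 and 11 UMIs), Icam2, Prg4 (152 and 537) and Garnl3 were higher in KO, and Selp (233 and 102) and Lyve1 (36 and 7) lower. The part of these differences in the results below was not tested, except where a value with them removed is given.

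These 4 promoters are shown because their genes carry the differences between the libraries described below: Bicd2, the targeted gene, and the subunit genes Dynll1, Dynlrb1 and Dctn3. They run from 250 bases before to 50 bases after the annotated start, read 5′ to 3′ on the gene's strand, from RefSeq on GRCm38.p6, which is not the mm39 build of the deposited matrices. Capitals mark a CCAAT box, a GC box (GGGCGG) or a TGACGTCA element, read on both strands.
Bicd2, chr13:49341299-49341598, plus strand: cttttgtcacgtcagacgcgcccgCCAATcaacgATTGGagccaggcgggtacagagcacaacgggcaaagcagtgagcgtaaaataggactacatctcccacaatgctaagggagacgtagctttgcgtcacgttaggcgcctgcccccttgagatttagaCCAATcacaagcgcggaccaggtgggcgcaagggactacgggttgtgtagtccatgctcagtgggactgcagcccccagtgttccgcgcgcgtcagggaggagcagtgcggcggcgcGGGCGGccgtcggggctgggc
Dynll1, chr5:115300941-115301240, minus strand: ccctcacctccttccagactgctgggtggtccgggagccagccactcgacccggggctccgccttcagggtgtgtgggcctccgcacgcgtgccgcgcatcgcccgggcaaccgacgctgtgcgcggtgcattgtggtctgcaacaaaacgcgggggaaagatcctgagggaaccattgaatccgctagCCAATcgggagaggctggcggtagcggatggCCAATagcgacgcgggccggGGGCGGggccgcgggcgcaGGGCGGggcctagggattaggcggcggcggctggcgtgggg
Dynlrb1, chr2:155236283-155236582, plus strand: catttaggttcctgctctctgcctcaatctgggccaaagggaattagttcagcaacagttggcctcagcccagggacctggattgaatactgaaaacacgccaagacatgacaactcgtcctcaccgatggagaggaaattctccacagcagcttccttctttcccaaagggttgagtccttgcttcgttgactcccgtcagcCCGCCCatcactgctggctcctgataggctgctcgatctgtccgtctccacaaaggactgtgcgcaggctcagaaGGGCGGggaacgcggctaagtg
Dctn3, chr4:41723114-41723413, minus strand: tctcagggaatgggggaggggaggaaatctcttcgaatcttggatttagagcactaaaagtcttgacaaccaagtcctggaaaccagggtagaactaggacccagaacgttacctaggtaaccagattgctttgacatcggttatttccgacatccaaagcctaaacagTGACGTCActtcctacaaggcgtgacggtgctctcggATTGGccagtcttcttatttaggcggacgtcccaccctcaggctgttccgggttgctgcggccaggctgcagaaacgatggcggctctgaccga

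Promoters were found for 32 of the 42 genes. CCAAT, the core of the NF-Y element, lay in 12 of the 32 (37.5%) and in 37.9% of all 27025 promoters of this length. The Bicd2 window held it 3 times and the Dynll1 window 2 times. GGGCGG, a GC box, lay in 21 of the 32 (65.6%) against 35.9% of all promoters. TGACGTCA, the full cyclic AMP response element, lay in 1 of the 32, that of Dctn3 (3.12%), against 1.88% of all. The pattern TTCNNNGAA lay in 0 of the 32 and in 8.47% of all. These matches describe the letters in the windows and were not tied to the levels.

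Across all kept cells, 38 of the 42 genes were counted. Of these 38, 7 were lower in KO (18.4%) and 1 was higher (2.63%), where the same calls took 14.6% and 6.66% of all 14561 genes counted. Their median log2 ratio was -0.15, and that of all genes was -0.07. The genes called lower were the light chains Dynll1, Dynlrb1, Dynlt1a, Dynlt1f and Dynlt5, the dynactin gene Dctn3 and Nde1, and the gene called higher was Dynlt2a3. By class, the counts beside the background shares of all genes were as follows. In T-like cells 9 of 34 were lower and 2 higher (background 19.7% and 9.34%). In NK-ILC1-like cells 9 of 28 were lower and 1 higher (19.2% and 4.79%). In B-like cells 6 of 24 were lower and 0 higher (19.7% and 2.51%). In monocyte-macrophage-like cells 3 of 29 were lower and 0 higher (11.6% and 5.13%). In DC-like cells 0 of 28 were lower and 1 higher (8.47% and 4.36%). In pDC-like cells 5 of 22 were lower and 0 higher (14.2% and 3.53%). In neutrophil-like cells 8 of 28 were lower and 4 higher (24.5% and 17.2%). In erythroid-like cells, where haemoglobin filled 87.9% of WT and 85.3% of KO UMIs, 1 of 5 was lower and 0 higher (15.9% and 23.1%). No difference of these shares from the background was tested. Scaling by TMM in place of total UMIs shifts the log2 ratio of CPM, without the added 1, by a constant in each class. This was -0.14 for neutrophil-like, -0.11 for erythroid-like, 0.15 for NK-ILC1-like, 0.17 for pDC-like and 0.34 for B-like cells. For the others it was under 0.1. On the scale of CPM plus 1 the shift is smaller for genes at few CPM. With TMM scaling, 1 member was called lower in B-like cells in place of 6. With cells over 10% haemoglobin left out, 0 were called lower in B-like cells and 4 in NK-ILC1-like cells. Without dividing cells, 3 were called lower in all kept cells. With cells thinned to 1000 UMIs, 4 were called lower in neutrophil-like cells and 1 in pDC-like cells. The shares of all genes under these alternatives were not computed, so these counts have no background beside them.

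**Figure D1:**
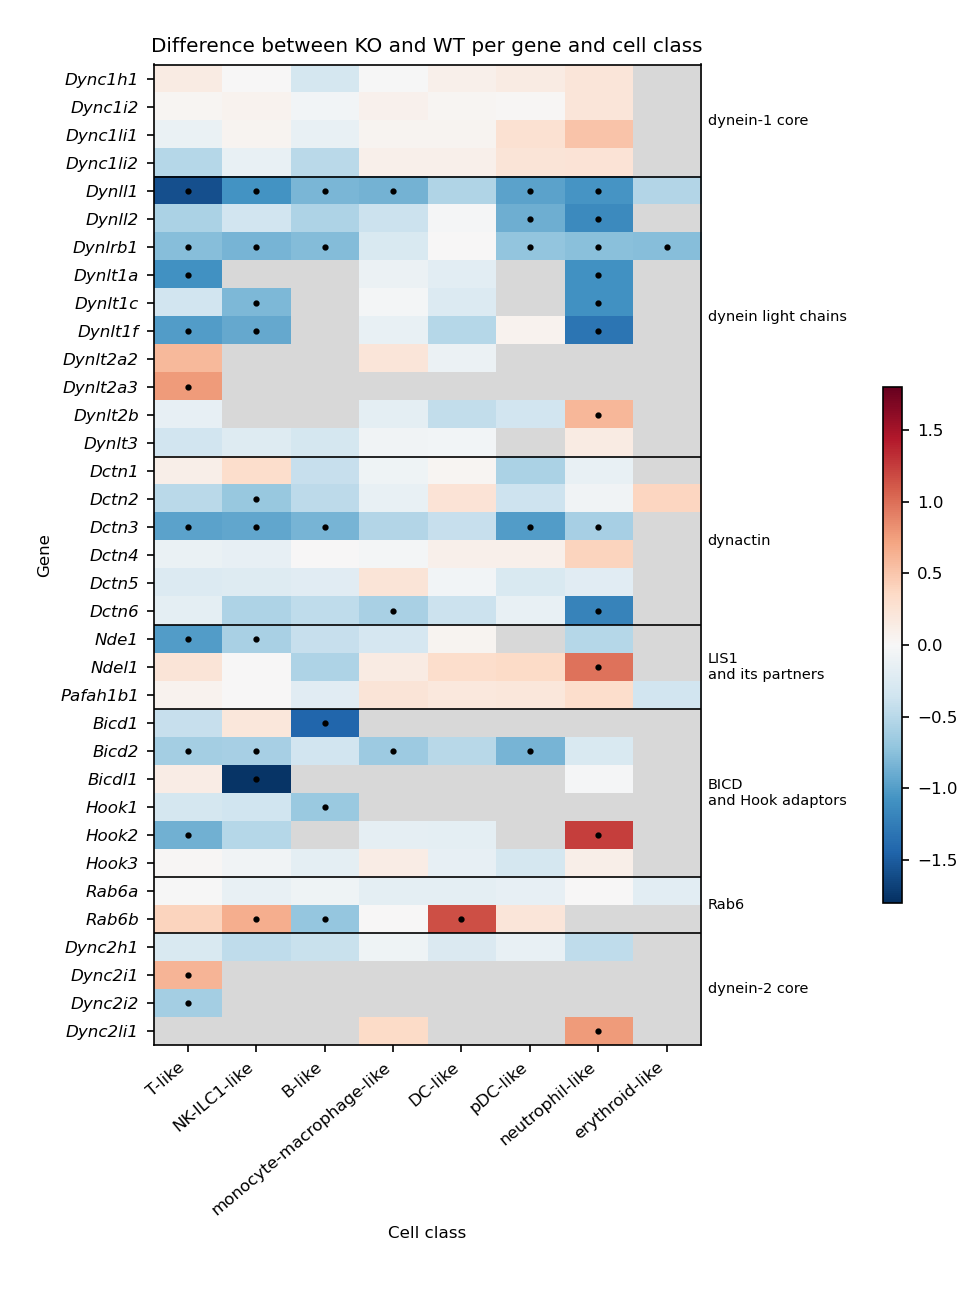
Log2 ratios of CPM plus 1, KO over WT, for each gene counted in at least 1 class (rows, grouped by role) and each class (columns); blue is lower in KO, red is higher, grey cells held under 50 UMIs, and dots mark differences of at least 1.5-fold. The Dynll1 row is blue in all 8 classes, while the Dync1h1 and Pafah1b1 rows hold no dot.

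Among the 5 dynein-1 core genes, the 4 that were counted in any class differed by under 1.5-fold in each of them. Dync1h1, the heavy chain with the motor domain, was at 99.5 CPM in WT (95.2 to 104) and 110.2 CPM in KO (104 to 116) in T-like cells. In monocyte-macrophage-like cells it was at 116 and 115 CPM, in NK-ILC1-like cells at 97.8 and 98.2 CPM, and in pDC-like cells at 125 and 139 CPM. B-like cells had the lowest log2 ratio, -0.31 (104 and 83.6 CPM), close to the all-gene median of -0.30 in that class. Neutrophil-like cells held less of it than other leukocytes in both libraries, at 39.6 CPM in WT and 46.3 CPM in KO. Dync1i2, the intermediate chain that binds dynactin, ranged from 80.3 to 119 CPM over the 7 leukocyte classes and both libraries, with log2 ratios between -0.05 and 0.22. Dync1li1, a light intermediate chain that contacts adaptors, was highest relative to WT in neutrophil-like cells, at 51.3 CPM (47.4 to 55.3) and 73.6 CPM (62.3 to 86.5). Within neutrophil-like cluster 1, which holds 1284 of the 1507 KO cells, Dync1li1 was at 71.7 and 82.2 CPM, and the ratio interval (0.915 to 1.43) held 1. Its sister Dync1li2 was at 34.8 CPM in WT and 24.0 CPM in KO in T-like cells. Within T-like cluster 0, which holds 3258 of the 5207 KO T-like cells, Dync1li2 was at 23.6 and 27.8 CPM. The ratio interval there (0.841 to 1.68) held 1, and KO was below WT in 3 of the 5 T-like clusters counted. Dync1i1, the form known from neurons, had 2 UMIs in WT and 1 in KO.

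Of the light chains, Dynll1 and Dynlrb1 were each called lower in 6 of 8 classes. The share of all genes called lower in as many classes was not computed. Dynll1 encodes LC8, a small dimer that binds many partners besides dynein. In T-like cells it was at 236 CPM in WT (229 to 242) and 77.9 CPM in KO (73 to 83.2), 3.02-fold lower (2.82 to 3.25). In NK-ILC1-like cells it was at 231 and 109 CPM, and in monocyte-macrophage-like cells, its highest class in both libraries, at 357 and 197 CPM. In pDC-like cells it was at 297 and 151 CPM, in neutrophil-like cells at 146 and 69.7 CPM, and in B-like cells at 147 and 83.0 CPM. Within neutrophil-like cluster 1, which holds 1284 of the 1507 KO cells, Dynll1 was at 68.0 and 45.4 CPM. That is a log2 ratio of -0.57, under 1.5-fold, against -1.06 for the class. Dynll1 was below WT in 2 of the 3 neutrophil-like clusters counted. DC-like cells (267 and 184 CPM) and erythroid-like cells (19.2 and 13.0 CPM) stayed under 1.5-fold, with log2 ratios of -0.54 and -0.53. The KO level was below the WT level in each of the 8 classes, and the counting intervals of the levels did not overlap in 7 of them, all but erythroid-like. The share of all genes with intervals apart was not computed. The B-like call was lost under 5 alternatives, among them TMM scaling (-0.48), cells over 10% haemoglobin left out (-0.56) and centring on genes of similar span (-0.40), and the pDC-like call was lost with that centring (-0.57).

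Dynlrb1, a roadblock light chain, was lower in KO in 6 of 8 classes. In T-like cells it was at 133 CPM (128 to 138) and 77.9 CPM (73 to 83.2), and in NK-ILC1-like cells at 116 and 64.5 CPM. B-like cells had 58.7 and 33.7 CPM, pDC-like cells 122 and 74.7 CPM, and neutrophil-like cells 80.8 and 47.8 CPM. Monocyte-macrophage-like cells (132 and 109 CPM) stayed under 1.5-fold. DC-like cells were the exception, at 109 CPM in WT (98.9 to 120.1) and 109.7 CPM in KO (98.5 to 122), which do not differ beyond counting error. Under the alternatives the B-like value moved to between -0.81 and -0.45 and the pDC-like value to between -1.49 and -0.47, and those calls were lost under 6 and 7 of 15 alternatives. The neutrophil-like call was lost under 3 of 15, the NK-ILC1-like call under 1 of 15 and the erythroid-like call under 5 of 13, while the T-like call was kept. Within cluster 0, which holds 3258 of the 5207 KO T-like cells, Dynlrb1 was at 98.8 and 87.6 CPM, and the interval of the ratio (0.748 to 1.05) held 1. In neutrophil-like cluster 1, which holds 1284 of the 1507 KO cells, it was at 51.8 and 41.8 CPM. That is a log2 ratio of -0.30 against -0.75 for the class. In neutrophil-like cluster 7 it was at 87.9 and 69.6 CPM, a log2 ratio of -0.33. The ratio intervals of both neutrophil-like clusters held 1.

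Dynll2, the other LC8 gene, shared 0 of its 50-base windows with Dynll1, so their reads can be told apart. It was at 82.6 CPM in WT and 55.3 CPM in KO in T-like cells, under 1.5-fold. Within T-like cluster 0 it was at 62.5 and 66.7 CPM, with a ratio interval (0.866 to 1.32) that held 1. The KO level of Dynll2 was below WT in 5 of the 6 T-like clusters counted. It was lower in KO in pDC-like cells, at 56.2 and 30 CPM, and in neutrophil-like cells, at 14.4 CPM (187 UMIs) and 5.97 CPM (12 UMIs). In DC-like cells it stood at 75.3 and 74.2 CPM. With dividing cells left out the neutrophil-like log2 ratio went from -1.14 to -0.49.

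The Tctex-type light chains Dynlt1a, Dynlt1c and Dynlt1f share 54.9% to 93.1% of their 50-base transcript windows with other Dynlt1 copies, so the split of reads among them is uncertain. Dynlt1f was at 51.3 CPM in WT (47.4 to 55.3) and 19.9 CPM in KO (14.2 to 27.1) in neutrophil-like cells, and at 17.6 and 8.27 CPM in T-like cells. Within T-like cluster 0 it was at 9.88 and 8.18 CPM, with a ratio of 0.829 whose interval held 1. In monocyte-macrophage-like cells, at 28.5 and 25.8 CPM, and in pDC-like cells, at 38.7 and 40.6 CPM, the intervals overlapped. Dynlt1a and Dynlt1c were each lower in neutrophil-like cells, with log2 ratios of -1.09 for both. In neutrophil-like cluster 1, which holds 1284 of the 1507 KO cells and 2240 of the 4346 WT cells, Dynlt1c was at 20.1 and 7.21 CPM, but Dynlt1a was at 4.71 CPM (19 UMIs) and 5.77 CPM (8 UMIs). Dynlt3 was counted in 6 classes and within 1.5-fold in each. Dynlt2b, a light chain of dynein-2, was at 54.2 and 39.8 CPM in DC-like cells, 39.6 and 30.9 CPM in pDC-like cells and 29.8 and 26.2 CPM in monocyte-macrophage-like cells. It was at 2.76 and 2.39 CPM in T-like cells and 2.50 and 0.717 CPM in NK-ILC1-like cells. In neutrophil-like cells it was at 45 CPM (41.4 to 48.7) and 68.7 CPM (57.7 to 81.1), a higher call lost under 5 alternatives. Within cluster 1 it was at 75.6 and 86.5 CPM, with a ratio interval of 0.918 to 1.42, and within cluster 7 at 27.6 and 20.6 CPM. Dynlt5 had 106 of its 112 WT UMIs in the progenitor-like cluster, at 22.5 CPM, and 2 UMIs in the whole KO library. Dynlt2a3, at 1.31 and 2.90 CPM in T-like cells, shares 92.5% of its windows with its copies. Dynlrb2 (2 UMIs in WT and 1 in KO) and Dynlt2a1 (5 and 0) were near absent.

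**Figure D2:**
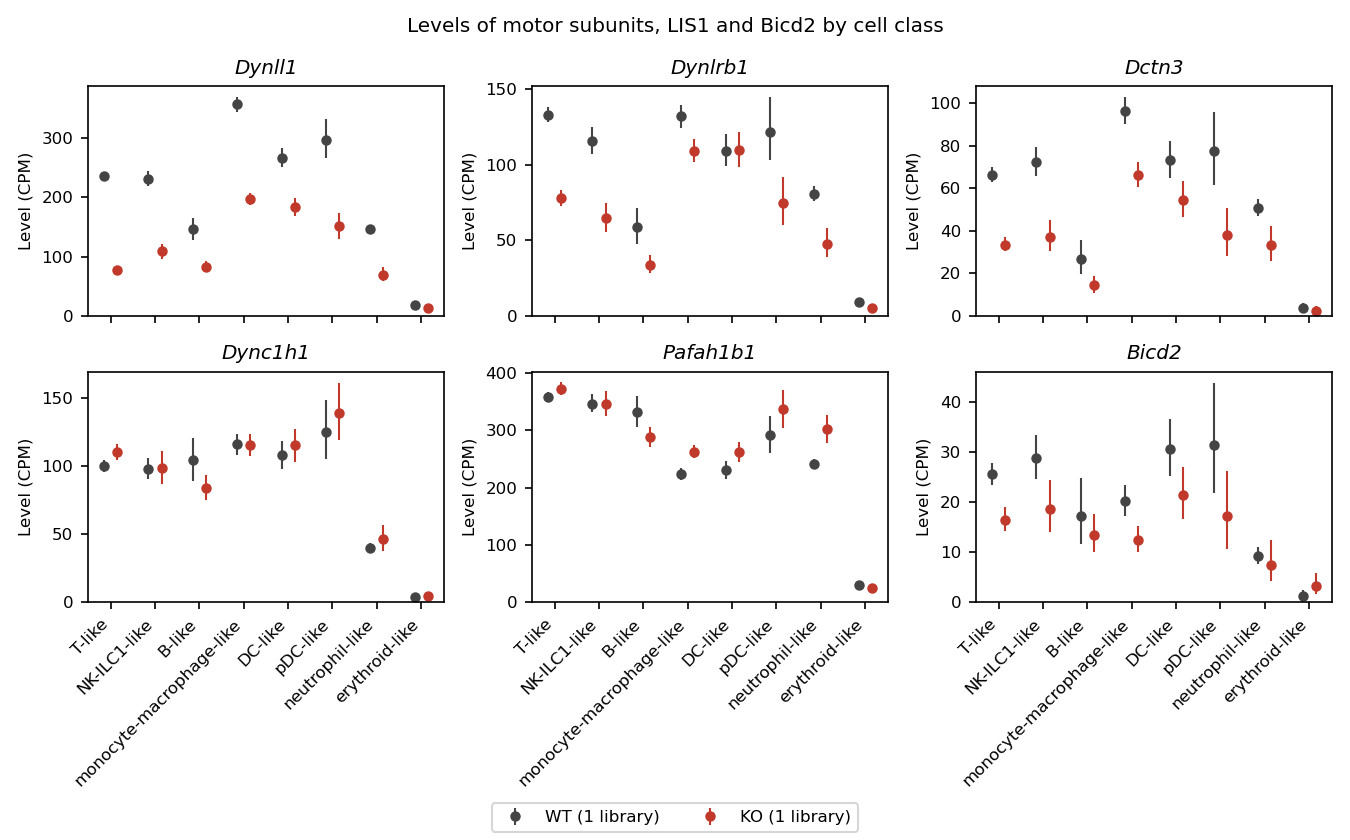
Levels in CPM with 95% Poisson intervals for 6 genes in the 8 classes, WT in grey and KO in red, 1 library each. Dynll1, Dynlrb1 and Dctn3 sit lower in KO in most classes, whereas Dync1h1 and Pafah1b1 differ by under 1.5-fold wherever they were counted. The Pafah1b1 intervals are apart in 2 of 8 classes, monocyte-macrophage-like and neutrophil-like, where KO is higher.

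Of the 6 dynactin genes, Dctn3 was called lower in the most classes, 5 of 7, a count with no all-gene share computed beside it. It encodes the p24 subunit of the shoulder and was at 66.4 CPM in WT (62.9 to 70.0) and 33.5 CPM in KO (30.3 to 37.0) in T-like cells. It was at 72.3 and 37.3 CPM in NK-ILC1-like cells, 77.4 and 38.2 CPM in pDC-like cells and 50.9 and 33.3 CPM in neutrophil-like cells. In B-like cells, at 26.7 and 14.4 CPM from 45 and 53 UMIs, the call was lost under 8 alternatives, and the neutrophil-like call under 7. Monocyte-macrophage-like cells (96.5 and 66.4 CPM) and DC-like cells (73.2 and 54.5 CPM) were lower by under 1.5-fold. Dctn1, the p150Glued subunit that binds microtubules, was at 35.2 and 37.9 CPM in T-like cells and within 1.5-fold in all 7 classes where it was counted. The same held for Dctn4 and Dctn5, pointed-end subunits. Dctn6, another pointed-end subunit, was at 21.9 CPM (285 UMIs) and 8.96 CPM (18 UMIs) in neutrophil-like cells, and at 93.9 and 85.3 CPM in pDC-like cells, its highest class in both libraries. Within neutrophil-like cluster 1 it was at 14.6 and 10.8 CPM, a log2 ratio of -0.40 against -1.20 for the class, with a ratio interval (0.389 to 1.32) that held 1. Dctn2, or dynamitin, was at 42.1 and 25.8 CPM in NK-ILC1-like cells, a call lost under 6 alternatives, and within 1.5-fold in the other 7 classes.

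Of the other dynactin subunits, which were not selected by name, Capzb, an actin-capping subunit, was at 568 and 369.5 CPM in T-like cells and Actr1b, an actin-related protein of the filament, at 30.6 and 19.3 CPM. They were the 2 of 6 called lower in that class, against 19.7% of all genes. In the other leukocyte classes, where 5 or 6 of them were counted, 0 were called in any direction. In erythroid-like cells 2 of the 3 counted were lower, against 15.9% of all genes. They were Capza1 at 13.3 and 7.72 CPM and Capza2 at 9.40 and 5.86 CPM.

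LIS1 and its partners differed from each other. Pafah1b1, which encodes LIS1, was at 359 CPM in WT (351 to 367) and 373 CPM in KO (362 to 384) in T-like cells, and its log2 ratios ran from -0.34 to 0.32 over the 8 classes. Ndel1 had its highest level in neutrophil-like cells in both libraries. In neutrophil-like cells it was at 210.0 CPM in WT (202 to 218) and 415 CPM in KO (388 to 445), 1.98-fold higher (1.83 to 2.14). The next class, monocyte-macrophage-like, was at 81.7 and 90.9 CPM. Within neutrophil-like cluster 1, led by Csf3r and Nlrp12, Ndel1 was at 419 CPM in WT and 525 CPM in KO, and within cluster 7, led by Ltf and Ly6g, at 133 and 183 CPM. Within cluster 21, led by Cxcl2 and Acod1 (383 WT and 82 KO cells), it was at 265 and 229 CPM. Cluster 1 held 2240 WT and 1284 KO cells and cluster 7 held 1265 and 126, and KO cells lay mostly in cluster 1, the highest of the 3. The 15 alternatives put the neutrophil-like log2 ratio between 0.69 and 1.09.

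Nde1, the paralog with a known role at the spindle, was at 60.5 CPM in WT (57.2 to 63.9) and 29.8 CPM in KO (26.8 to 33.1) in T-like cells. The 19 cell division genes were all lower there, with a summed level of 2202 CPM in WT and 538 CPM in KO. Cluster 14, the T-like cells led by Kif11 and Cenpf, held 685 WT and 153 KO cells, and Nde1 was at 101 and 69.6 CPM within it. With dividing cells left out, Nde1 in T-like cells stayed at least 1.5-fold lower, as it did under each of the 15 alternatives. In cluster 0, led by Il4 and Zbtb16, it was at 29.6 and 26.9 CPM, and in cluster 9, led by Cd8b1 and Dapl1, at 25.6 and 31.5 CPM, and the intervals of both ratios held 1. NK-ILC1-like cells were at 44.6 and 29.4 CPM, a log2 ratio of -0.59 that passed the fold under only 3 of 15 alternatives.

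The targeted gene, Bicd2, had 1316 UMIs in kept WT cells and 553 in KO cells, 19.8 CPM (18.8 to 20.9) and 13.3 CPM (12.2 to 14.4). The ratio of KO to WT was 0.669 (0.605 to 0.740), a log2 ratio of -0.55 and so under the fold used as a call. By class it was at 25.5 and 16.4 CPM in T-like cells, 28.7 and 18.6 CPM in NK-ILC1-like cells, 20.1 and 12.4 CPM in monocyte-macrophage-like cells and 31.3 and 17.1 CPM in pDC-like cells, each called lower. It was at 30.5 and 21.3 CPM in DC-like cells, 17.2 and 13.3 CPM in B-like cells and 9.24 and 7.46 CPM in neutrophil-like cells, where the KO level was below WT by under 1.5-fold. The KO level was below the WT level in each of the 7 classes where it was counted, but the ratio interval held 1 in B-like cells (0.480 to 1.27) and neutrophil-like cells (0.439 to 1.39). The intervals of the levels were apart in 3 of the 7, a count with no all-gene share computed beside it. The B-like log2 ratio of -0.34 was near the all-gene median of -0.30. In T-like cells the log2 ratio went from -0.61 to -0.36 with dividing cells left out, and in NK-ILC1-like cells from -0.60 to -0.13 with cells thinned to 1000 UMIs. Over all kept cells it was -0.36 with haemoglobin left out of the totals and -0.30 without dividing cells. The floxed exons were not given in the sources used here and the reads come from 3′ ends, so these levels do not check the deletion. In cluster 24, led by hepatocyte transcripts such as Alb and Fabp1, Bicd2 had 0 UMIs in 44 WT cells and 3 UMIs in 98 KO cells, too few to compare.

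Within single named clusters with at least 50 cells in each library, Bicd2 was below WT in 14 of the 14 clusters where it was counted. Its log2 ratios there ran from -1.70 in the dividing T-like cluster 14 (34.0 CPM from 172 UMIs and 9.76 CPM from 8 UMIs) to -0.07 in monocyte-macrophage-like cluster 13. Of the 14, 7 were at least 1.5-fold lower in KO. The ratio interval of Bicd2 held 1 in T-like cluster 0 (0.515 to 1.07) and in cluster 2 (0.146 to 2.10, with 3 UMIs in KO). Dctn3 was below WT in 18 of 18 clusters and Dynll1 in 19 of 20. Of the 5851 genes counted in at least 14 of these clusters, 5.30% were below WT in every cluster where they were counted. Among the 20 members counted that widely they were 2, Bicd2 and Dctn3. The minimum of 14 clusters equals the number in which Bicd2 was counted, and it was set after seeing the data. Dynlrb1 was below WT in 18 of 19 clusters, with DC-like cluster 17 the exception, at 98.0 and 108 CPM. Dync1h1, by contrast, was below WT in 5 of 18 clusters and above in 13. The T-like class differed in its clusters, since cluster 2, led by Cd4 and Slamf1, held 3387 WT and 71 KO cells and cluster 0 held 659 and 3258. Within cluster 2 Dynll1 was at 222 and 113 CPM, and within cluster 0 at 128 and 67.3 CPM.

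**Figure D3:**
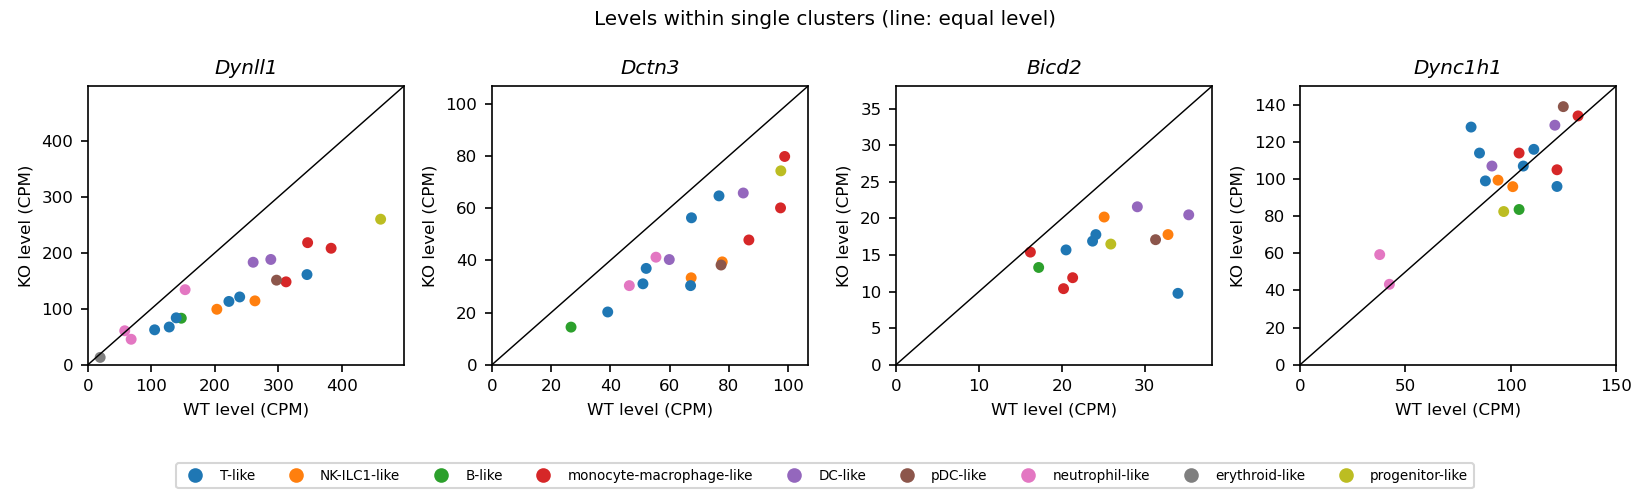
KO level against WT level in CPM within single clusters of at least 50 cells in each library, 1 point a cluster, coloured by class, with the line of equal level. Points of Dctn3 and Bicd2 all lie under the line, as do 19 of 20 for Dynll1, while Dync1h1 has 13 of 18 above it.

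Bicd1, the paralog of Bicd2, was at 34.6 CPM in WT (30 to 39.6) and 39.8 CPM in KO (32.7 to 47.9) in NK-ILC1-like cells, and at 7.99 and 5.71 CPM in T-like cells. Within T-like cells the Foxp3-led cluster 23 held it at 81.2 CPM (81 UMIs) and 144 CPM (19 UMIs). In B-like cells it was at 17.8 CPM (12 to 25.4) and 5.99 CPM (3.75 to 9.07), lower by 2.97-fold (1.66 to 5.40). From 30 and 22 UMIs this call was lost under 4 alternatives, each time because its UMIs were under the minimum used there, while the log2 ratio stayed between -1.55 and -0.80. In pDC-like cells it was at 16.6 and 13.0 CPM from 18 and 16 UMIs. It had 13 or fewer UMIs per library in DC-like, monocyte-macrophage-like, neutrophil-like and erythroid-like cells.

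Bicdl1, a BICD-family adaptor with a known role in Rab6 vesicle transport in neurons, was found in T-like and NK-ILC1-like cells. In NK-ILC1-like cells it was at 50.8 CPM in WT (45.2 to 56.8) and 14.3 CPM in KO (10.2 to 19.5), 3.54-fold lower (2.54 to 5.06). Both clusters of that class showed it, at 43.3 and 7.22 CPM in the Klra8-led cluster 5 and at 57.5 and 27.3 CPM in the Xcl1- and Gzmc-led cluster 8. The call was kept under all 15 alternatives, with log2 ratios from -1.82 to -1.32. The 12 T-cell markers summed to 4286 CPM in WT and 2559.9 CPM in KO within the NK-ILC1-like class, and their part in this difference was not tested. In T-like cells it was at 52.9 and 58.4 CPM. Within clusters of that class the KO level was below WT in 4 of 5, at 118 and 92.2 CPM in cluster 9 and at 113 and 74.1 CPM in cluster 12, led by Lef1 and Igfbp4. The exception was cluster 14, at 46.4 and 48.8 CPM. Clusters 9 and 12 had more of it than the rest and held more KO than WT cells, 824 against 354 and 803 against 272. In monocyte-macrophage-like cells it was at 1.66 and 1.47 CPM.

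Hook1, an endosomal adaptor, was highest in B-like cells in both libraries, at 27.9 and 17.1 CPM, a difference that went to a log2 ratio of 0.07 with cells thinned to 1000 UMIs. Hook2, which is known from centrosomes, was at 13.4 and 6.91 CPM in T-like cells and at 3.85 CPM (50 UMIs) and 10.4 CPM (21 UMIs) in neutrophil-like cells. Hook3 was within 1.5-fold in all 7 classes where it was counted, from 60.9 to 104 CPM over classes and libraries. Bicdl2 had 18 UMIs in WT and 5 in KO.

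The Rab6 genes had different distributions over cell types. Rab6a, the ubiquitous form that marks Golgi vesicles, was at 143 CPM in neutrophil-like cells of both libraries (137 to 149.7 in WT and 127 to 160.3 in KO), above every other class. In the other 6 leukocyte classes it ran from 44.2 to 65.7 CPM in WT and from 39.8 to 57.9 CPM in KO, and no class reached 1.5-fold. Rab6b, known as the brain-enriched form, was highest in pDC-like cells, at 65.4 CPM (51.1 to 82.5) and 76.3 CPM (61.7 to 93.4). T-like cells followed at 30.4 and 40.5 CPM. Within T-like clusters 0, 9 and 12 the log2 ratios of Rab6b were 0.03, -0.15 and -0.17. In NK-ILC1-like cells it was at 23.2 and 36.9 CPM and in DC-like cells at 5.21 CPM (20 UMIs) and 12.8 CPM (41 UMIs), both called higher in KO. The DC-like call was lost under 4 alternatives. In B-like cells it was at 22.5 and 13.6 CPM, a lower call that held under 5 of 15 alternatives. The 2 genes shared 0 of their 50-base windows.

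**Figure D4:**
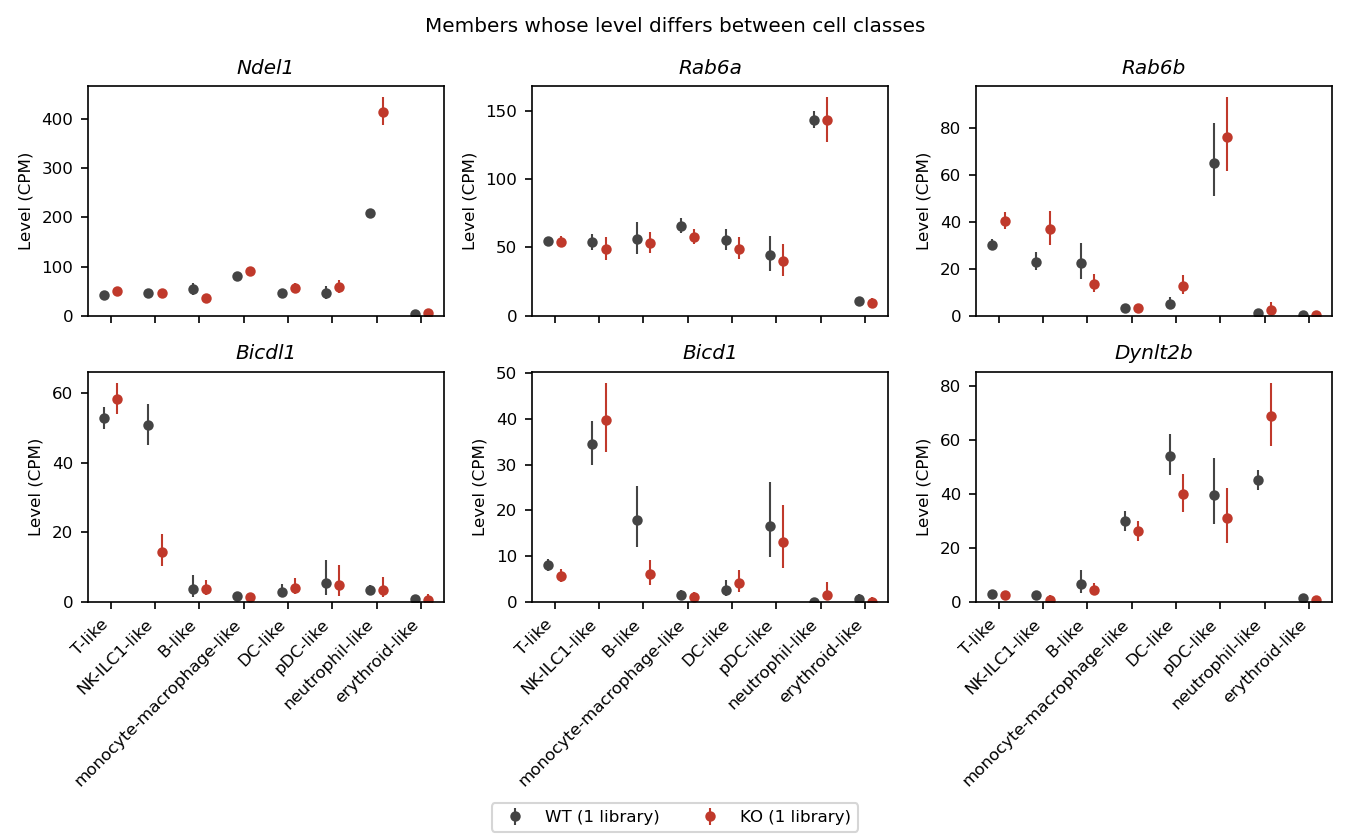
Levels in CPM with 95% Poisson intervals for 6 genes whose level differs between classes, WT in grey and KO in red, 1 library each. Ndel1 and Rab6a peak in neutrophil-like cells, Rab6b in pDC-like cells, Bicdl1 in T-like cells and, in WT, NK-ILC1-like cells.

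The dynein-2 core was low. Dync2h1, its heavy chain, was at 16 and 14.6 CPM over all kept cells and within 1.5-fold in all 7 classes where it was counted. Dync2i1, Dync2i2 and Dync2li1 each had between 51 and 119 UMIs per library. Dync2i1 (1.16 and 2.30 CPM) and Dync2i2 (2.08 and 1.02 CPM) were called in opposite directions in T-like cells, from 51 and 55 UMIs in all, and these calls were lost under 8 and 9 of 15 alternatives. Dync2li1 was at 4.54 and 8.46 CPM in neutrophil-like cells, a call that went to a log2 ratio of -0.08 with thinned cells.

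Other genes of the pathway were read from lists. In T-like cells 19.7% of all genes counted were called lower and 9.34% higher. No list was tested against the shares of all genes. Of 13 other dynein adaptors, 11 were counted in T-like cells and 1 was lower, Spdl1, the kinetochore adaptor, at 21.2 and 4.86 CPM. Ccdc88a, or girdin, was at 20.0 and 44.1 CPM in NK-ILC1-like cells. Its paralogs differed in monocyte-macrophage-like cells, Ccdc88b at 80.1 and 43.6 CPM and Ccdc88c at 109 and 185 CPM. Of 9 Rab6 and BICD2 partners, Ric1, part of the complex that activates Rab6, was lower in T-like cells (117 and 74.1 CPM), monocyte-macrophage-like cells (47.8 and 31.4 CPM) and DC-like cells (59.4 and 31.0 CPM). Kif20a, a Rab6-binding kinesin of cytokinesis, was at 20.6 and 5.20 CPM in T-like cells. Of 7 kinesin-1 genes 6 were counted in T-like cells, and Kif5c (22.6 and 6.65 CPM) and Klc3 (4.70 and 2.47 CPM) were lower. Of the 6 microtubule plus-end genes 0 were called in T-like cells, while Clip1 was at 136 and 207 CPM in neutrophil-like cells and Clasp2 at 154 and 89.3 CPM in B-like cells. Of 5 LINC complex genes, which join the nucleus to dynein and actin, 3 were lower in neutrophil-like cells, against 24.5% of all genes. Syne1 was at 1029.8 and 476 CPM there. In T-like cells Syne3 was at 28.3 and 10.7 CPM and Sun2 at 90.9 and 143 CPM, while in NK-ILC1-like cells Syne3 was at 31.7 and 70.6 CPM.

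The difference between the libraries varied with gene span, the distance from a gene's annotated start to its end. Over all genes counted in T-like cells the median log2 ratio was -0.31 in the shortest of 5 equal-sized ranges of span and 0.05 in the longest, and in neutrophil-like cells -0.42 and 0.24. Dynll1 and Dynlt1c lay in the shortest range in both classes, and Dync1h1 lay in the longest in T-like cells. In T-like cells Dynll1 (-1.58) lay below the all-gene median of that range and Dynlt1c (-0.34) close to it, and in neutrophil-like cells both lay below it (-1.06 and -1.09). After each ratio was centred on the median of all genes in its span range, an alternative added after seeing the data, Dynll1 stayed called lower in T-like, NK-ILC1-like, monocyte-macrophage-like and neutrophil-like cells. Malat1, a nuclear RNA, took 1.37% of UMIs in WT and 2.97% in KO in neutrophil-like cells, 1.26% and 1.76% in T-like cells, and ribosomal protein genes 12.2% and 7.65% in NK-ILC1-like cells. The part of span and of these shares in the differences was not tested further.

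**Figure D5:**
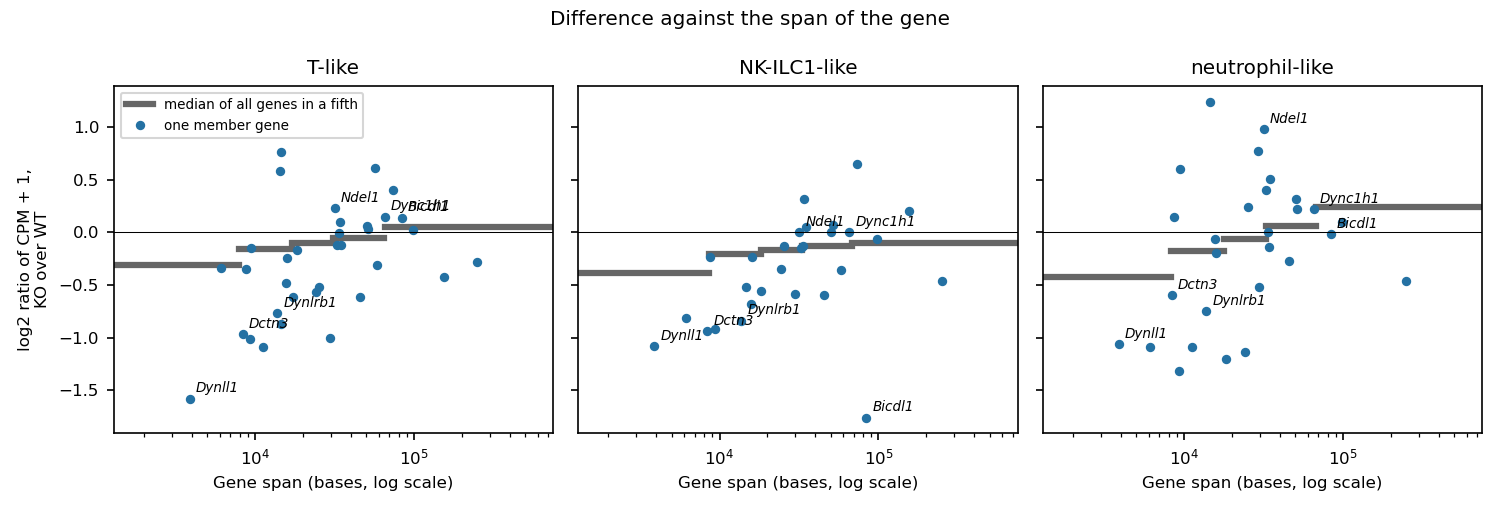
Log2 ratio of CPM plus 1, KO over WT, against the span of the gene in bases (log axis) in 3 classes; points are members and grey bars the median of all genes in each of 5 ranges of span, the outer bars running past the axis. The bars climb from -0.31 to 0.05 in T-like cells and from -0.42 to 0.24 in neutrophil-like cells, and Dynll1 lies under the bar of its range.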

How the data were processed

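Gene expression was measured in single cells of 2 mouse libraries, 1 WT and 1 KO, with a droplet kit that reads 3′ ends. The deposited values are raw UMI counts per gene and barcode, not normalized, made with Cell Ranger 8.0.1 per the file headers. Per the submitters' processing notes the version of Cell Ranger was 6.0.1, a conflict that was not settled, and Seurat 4.3.0 and the mm39 build are also listed there.

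Barcodes with at least 200 genes and at most 20% mitochondrial UMIs passed (20167 of 22197 WT and 17675 of 27033 KO barcodes). Scrublet in scanpy 1.11.5 marked 2757 WT (13.7%) and 2218 KO (12.5%) as doublets, which were left out. The rest were scaled to 10000 UMIs, reduced to 2000 variable genes without the 42 members, 30 components and 15 neighbours, and clustered with leidenalg 0.10.2 at resolution 1 into 27 clusters under Python 3.11.15. A class name needed at least 3 listed markers, and 1831 KO and 320 WT cells stayed unnamed. Their clusters met that minimum but failed further rules. Clusters 10 (49 WT and 1091 KO cells) and 18 (102 and 414) had erythroid markers with a median haemoglobin share under 75%. Clusters 22 and 24 were led by genes of another type. Il4 and Zbtb16 were among the leading genes of cluster 10, as of T-like cluster 0. Clusters 2 and 0 hold most T-like cells of WT and KO in turn.

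UMIs were summed per library and class. With 1 library a group no p-value was computed, and calls use 1.5-fold in CPM plus 1 with at least 50 summed UMIs. The script that computes the intervals and calls was tested on simulated counts with planted fold changes. Named genes were members past that fold whose ratio interval leaves out 1 (at most 10 a class), Bicd2 and Bicd1 in every class, and the most abundant member of each role, while any other member could be named too; of the pathway lists at most 3 a list and class. Capza2, whose interval holds 1, was named after its value was seen. The alternatives were scaling by edgeR 4.0.16 (TMM) or DESeq2 1.42.0 size factors in R 4.3.3, other cell filters, doublets kept, resolution 0.5, cells over 10% haemoglobin or dividing cells left out, haemoglobin left out of totals, free RNA subtracted, cells thinned to 1000 UMIs, other UMI minimums and other pseudocounts. Values within single clusters and centring on gene span were added after seeing the data. The members and lists were chosen with earlier results of these data known.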

Additional observations from a re-analysis of the deposited data

Results flagged for a closer look

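Hook2 and Rab6b were each on opposite sides in different classes. Hook2 had a log2 ratio of KO over WT of -0.87 in T-like cells and 1.24 in neutrophil-like cells, the latter from 50 and 21 UMIs. Rab6b had a log2 ratio of -0.69 in B-like cells, 0.65 in NK-ILC1-like cells and 1.16 in DC-like cells. With 1 library in each group the differences between classes were not tested.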

How the results depend on the processing

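No paired analysis was possible because each group was 1 library. Of 57 calls of a member in a class (all kept cells included), 15 were kept under every alternative run, where a call needs both the fold and the UMI minimum. Of the 57, all but 2 had log2 ratios of the same direction under every alternative that gave a value. The 2 were reversed with thinned cells: Hook1 in B-like cells, at a log2 ratio of 0.07, and Dync2li1 in neutrophil-like cells, at -0.08. The cause of the shifts below was not tested. They are counts of members called, in place of those of the report. The share of all genes called under each alternative was not computed, so these counts have no background beside them.

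With TMM or DESeq2 scaling, 2 were higher in all kept cells, 1 lower in B-like and 2 lower in erythroid-like cells. At resolution 0.5, 1 was higher in T-like cells. With 500 genes and 10% mitochondrial UMIs as limits, 2 were higher in all kept cells, as with free RNA subtracted (0 lower in erythroid-like cells), doublets kept (1 lower in DC-like cells) and a pseudocount of 0.1. Leaving out cells over 10% haemoglobin gave 0 higher in DC-like, 2 in NK-ILC1-like, 1 in pDC-like and 3 in all kept cells, and the lower calls 4 in all kept, 0 in B-like, 4 in NK-ILC1-like, 1 in monocyte-macrophage-like and 3 among pDC-like cells. With haemoglobin left out of totals, 3 were higher and 4 lower in all kept cells, and 1 lower in B-like, 3 in erythroid-like and 1 in monocyte-macrophage-like cells. With cells thinned to 1000 UMIs (1967 WT and 2610 KO cells were too shallow), the higher calls were 0 in DC-like, 2 in NK-ILC1-like, 0 in T-like, 2 in all kept and 1 in neutrophil-like cells, and the lower calls 2 in B-like, 2 in DC-like, 4 in NK-ILC1-like, 0 in erythroid-like, 1 in monocyte-macrophage-like, 4 in neutrophil-like and 1 in pDC-like cells. Centred on span, 2 were higher in all kept cells and 1 lower in B-like, 4 in NK-ILC1-like and 3 in pDC-like cells. Without dividing cells, the higher calls were 0 in DC-like, 1 in T-like, 2 in all kept and 2 in neutrophil-like cells, and the lower calls 3 in DC-like, 3 in all kept and 5 in neutrophil-like cells. With a minimum of 100 UMIs, the higher calls were 0 in DC-like, 0 in T-like and 2 in neutrophil-like cells, and the lower calls 3 in B-like, 0 in erythroid-like and 3 in pDC-like cells. With no minimum, the higher calls were 5 in DC-like, 2 in NK-ILC1-like, 2 in erythroid-like, 1 in pDC-like and 1 in monocyte-macrophage-like cells, and the lower calls 13 in B-like, 7 in erythroid-like and 10 in pDC-like cells. With a pseudocount of 10, the higher calls were 0 in NK-ILC1-like, 0 in T-like, 0 in all kept and 1 in neutrophil-like cells, and the lower calls 4 in NK-ILC1-like, 5 in T-like, 4 in all kept, 0 in erythroid-like and 1 in monocyte-macrophage-like cells.

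The log2 ratio of Bicd2 in all kept cells was -0.36 with cells over 10% haemoglobin left out, with haemoglobin left out of totals or with a pseudocount of 10, -0.43 with thinned cells and -0.30 without dividing cells. With thinned cells it was -0.13 in NK-ILC1-like and -1.40 in neutrophil-like cells, and without dividing cells it was -0.36 in T-like cells. No erythroid-like cells lay at or under 10% haemoglobin. Depth limits members under 50 UMIs in a class, for which no call was made.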
